A study of Mus musculus with 24 samples.

Results

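Camk2n1, Wfdc1, Cldn10, P2ry1 and Vit were the 5 genes examined, chosen because their probes were about 10-fold dimmer in activated than in quiescent fibro/adipogenic progenitors (FAPs). They are 5 of 7576 named genes that passed the detection filter. The array carried 8 probes for them among 25697, and 6 of these passed the filter, with every gene represented. Since the change on activation selected the genes, that change is described here without a test, and the differences between ages are tested.

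FAPs were taken from wildtype C57BL/6J male mice aged 2 to 4 months (young) or 20 to 24 months (old). Quiescent cells came from muscle without injury. Activated cells came from muscle injected 3 days earlier with 50 µl of glycerol at 50% v/v, and in both states the tibialis anterior, gastrocnemius and quadriceps were pooled. RNA of freshly sorted cells was hybridised to 24 Illumina bead arrays, 6 for each of the 4 groups. The labels call these 6 biological replicates but do not say how many animals made up each one, so p-values measure the spread between these arrays. No injured group without glycerol and no other day after injury was analysed here. Which surface markers were sorted for is not given in the sources used here.

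FAPs are resident mesenchymal cells of skeletal muscle that lie between the fibres. After injury they divide, secrete matrix and growth factors that assist the muscle stem cells, and then largely disappear as the tissue is repaired. In a fatty or fibrotic muscle they are the cells that become adipocytes or matrix-producing fibroblasts, and glycerol injection is a model that favours fat deposition. The 5 genes belong to no single pathway. Camk2n1 encodes an inhibitor that binds the kinase CaMKII, and Wfdc1 encodes a secreted protein with a whey acidic protein domain. Cldn10 encodes a claudin, a membrane protein that forms ion-permeable strands in epithelial tight junctions. P2ry1 is a Gq-coupled receptor for extracellular ADP, best known from platelets and also present on endothelial cells. Vit encodes vitrin, a matrix protein with von Willebrand factor A and LCCL domains.

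Each array detected between 6587 and 9943 probes at a detection p-value under 0.01. Arrays within a group correlated with a median of 0.908 (old quiescent) to 0.952 (young activated). Of 22 FAP and fibroblast markers, 18 were measured, and all 18 were detected on every quiescent array. Pdgfra, the receptor that defines these cells, was detected on all 24 arrays. Pax7, Myf5 and Myod1, which define muscle stem cells, were detected on 0 of 24 arrays. Each has 1 probe, so this says little about whether such cells were present. Col1a1, a listed fibroblast marker that also has 1 probe, was detected on 1 of 24 arrays and is not among the 18. Of 11 listed satellite cell and muscle genes, 6 were measured, with a mean log2 level that went from 7.01 to 5.94 on activation in young mice and from 6.85 to 6.72 in old ones. Macrophage and endothelial transcripts were present as well, and moved with the state of the cells. The mean log2 level of 15 macrophage markers ran from 6.57 to 7.31 in quiescent and from 8.66 to 11.01 in activated cells of young mice, with 7.16 to 10.5 and 10.2 to 11.1 in old mice. That of 12 endothelial markers ran from 9.15 to 10.1 and from 6.24 to 7.54 in young mice, with 8.27 to 9.67 and 7.68 to 8.30 in old mice. The FAP marker mean fell over the same samples, from 10.7 to 9.33 in young and from 10.4 to 9.29 in old mice, where 14 and 12 of the 18 markers were called lower on activation. In bulk RNA of this kind, fewer cells of a type and less RNA per cell cannot be told apart.

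**Figure D1:**
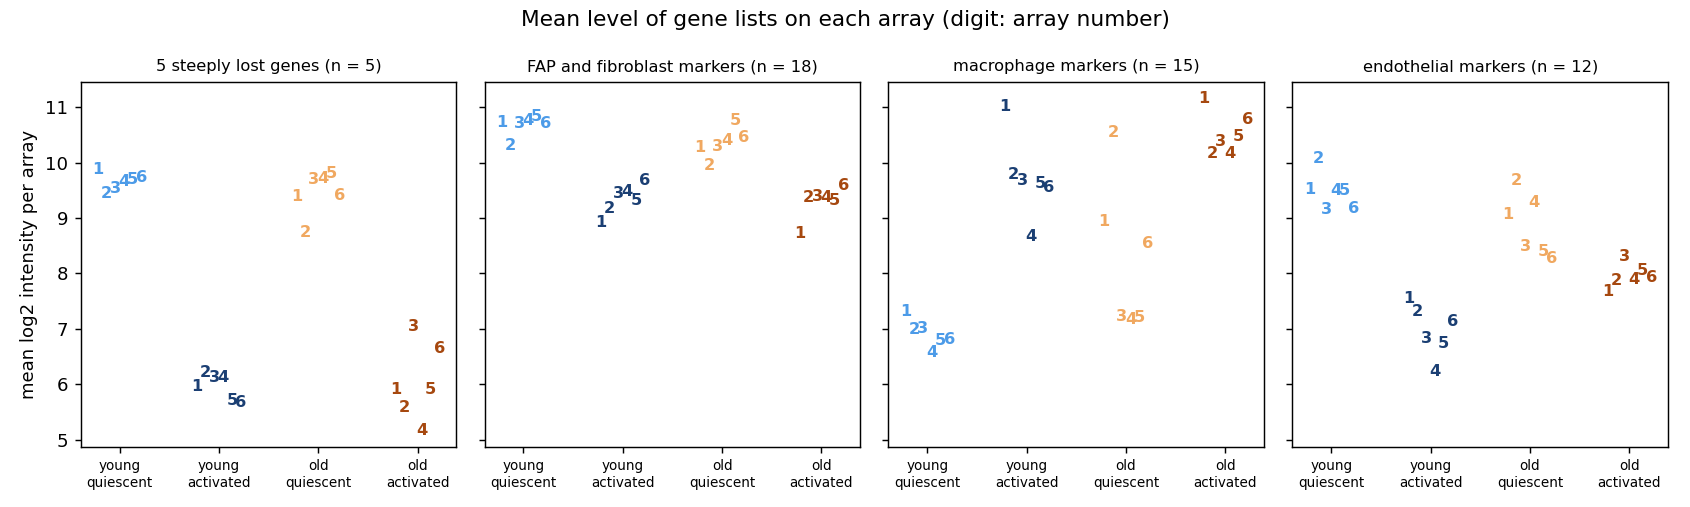
Mean log2 intensity of 4 gene lists on each array (vertical axis) in the 4 groups (horizontal axis), each digit giving the array number within its group. The 5 steeply lost genes and the FAP markers are lower in both activated groups, the macrophage markers are higher, and the endothelial markers lie lowest in young activated arrays.

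Promoter sequence was at hand for 2 of the 5 genes, and is shown because Cldn10 has a pair of start sites whose letters differ and P2ry1 gives a comparison. The windows run from 250 bases before to 50 bases after each start in RefSeq's annotation of GRCm38.p6, on the + strand, printed 5′ to 3′. They lie at chr14:118787621-118787920 and chr14:118854700-118854999 for Cldn10 and at chr3:61002535-61002834 for P2ry1. Capitals mark the motifs found.
Cldn10 first start: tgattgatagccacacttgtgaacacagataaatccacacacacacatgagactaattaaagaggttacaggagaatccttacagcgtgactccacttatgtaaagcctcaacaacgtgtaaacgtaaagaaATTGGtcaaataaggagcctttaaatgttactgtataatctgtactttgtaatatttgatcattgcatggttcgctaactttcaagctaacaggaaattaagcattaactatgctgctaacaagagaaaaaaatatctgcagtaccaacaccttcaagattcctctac
Cldn10 second start: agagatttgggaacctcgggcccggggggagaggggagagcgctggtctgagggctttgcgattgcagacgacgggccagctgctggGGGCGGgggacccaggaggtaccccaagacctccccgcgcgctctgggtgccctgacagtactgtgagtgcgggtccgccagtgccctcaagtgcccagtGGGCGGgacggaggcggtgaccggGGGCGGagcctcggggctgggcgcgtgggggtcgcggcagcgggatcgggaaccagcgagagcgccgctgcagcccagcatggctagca
P2ry1: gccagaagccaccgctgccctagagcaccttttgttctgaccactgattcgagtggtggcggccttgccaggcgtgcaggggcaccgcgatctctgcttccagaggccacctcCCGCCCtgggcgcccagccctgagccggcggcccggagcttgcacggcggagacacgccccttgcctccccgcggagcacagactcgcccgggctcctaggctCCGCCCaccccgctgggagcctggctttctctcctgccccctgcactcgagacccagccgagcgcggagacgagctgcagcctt

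Both strands were searched for the TATA box (TATAAA), the CAAT box (CCAAT), the GC box (GGGCGG), the E-box (CACGTG), and the motifs of AP-1 (TGANTCA), FOX factors (GTAAACA) and TEAD factors (GGAATG). The first Cldn10 window is rich in A and T (36% G and C) and holds CCAAT once, on the minus strand at position -118 from the start. The second (72% G and C) holds GGGCGG 3 times, at positions -163, -63 and -39. P2ry1 (70.7% G and C) holds GGGCGG on the minus strand at positions -137 and -34. Of 32851 promoters in the table, 37.4% hold CCAAT and 35.7% hold GGGCGG, so these matches are common. The other 5 motifs, held by 13.6% (TATAAA), 7.15% (CACGTG), 7.81% (TGANTCA), 3.65% (GTAAACA) and 14.7% (GGAATG) of promoters, were not among the letters of these 3 windows.

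Camk2n1, the CaMKII inhibitor, kept the brightest signal of its probe in quiescent cells of either age. Values are normalized log2 intensities, each group given by its lowest, median and highest array. Young quiescent arrays read 9.95, 10.54 and 10.84, and old quiescent arrays 9.41, 10.44 and 10.89. Young activated arrays read 5.96, 6.75 and 7.25, and old activated arrays 6.26, 6.98 and 7.87. No activated array reached any quiescent one, while the ages overlapped widely in both states. The change on activation was -3.74 ± 0.29 (SE, n = 6 arrays per group) in young mice, a 13.3-fold lower level, and -3.34 ± 0.29 in old mice, 10.1-fold lower. In raw intensity the median went from 1552 to 189.7 in young and from 1330 to 220.6 in old samples. Camk2n1 was the only one of the 5 genes detected on all 24 arrays, but its activated levels still depended on the background step. Without background correction its falls were 7.68-fold in young and 6.29-fold in old mice.

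Among 19 genes of CaMKII signalling, 16 were on the array and 11 were measured. Of the 11, 1 rose and 1 fell in young mice, and 3 rose and 1 fell in old mice. That is 2 and 4 of 11 called, where 33.7% of all features were called in young and 28.3% in old mice. In limma's fit, Camk2d, a CaMKII subunit, rose 1.80-fold in young mice (adjusted p = 0.00397), with its probe detected on 1 of 6 quiescent arrays. It was called higher in old mice too (adjusted p = 0.0346), but its probe was detected on 0 of 6 old quiescent arrays, so no size is given. Camk2b, another subunit, fell at least 1.41-fold in young mice (adjusted p = 0.00408), where no activated array detected it. In old mice Camk2b fell 1.69-fold (adjusted p = 0.0377). There 4 of 6 quiescent and 1 of 6 activated arrays detected its probe, so this size is read partly against background. Camk1, a related kinase, rose 1.85-fold (adjusted p = 0.00824) and Calm2, a calmodulin gene, 1.82-fold (adjusted p = 0.0292), both in old mice. The old-mouse calls of Calm2, Camk2d and Camk2b were each lost under several settings and with 6 of 12 arrays left out in turn, for example without old activated 3 for Calm2 (adjusted p = 0.0604) and Camk2d (adjusted p = 0.0916) and without old quiescent 3 for Camk2b (adjusted p = 0.111). The median change of the 11 genes was -0.06 in young and -0.08 in old mice, near the -0.01 and -0.00 of all 8148 features tested.

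Wfdc1 had the lowest levels in old activated cells and was lower in old than in young mice in each state. Its young quiescent arrays read 8.80, 9.48 and 9.75, and its old quiescent arrays 7.36, 8.38 and 9.01. Young activated arrays read 5.00, 5.74 and 6.41, and old activated arrays 4.32, 4.82 and 5.24. Quiescent and activated arrays lay apart at each age, and the groups ordered as young quiescent, old quiescent, young activated and old activated with the 2 ages overlapping within a state. On activation the level changed by -3.67 ± 0.27 in young (12.7-fold) and by -3.60 ± 0.27 in old mice (12.2-fold). In the main setting this was the most even pair among the 5 genes. Only 3 of 6 old activated arrays detected the probe, so the old change is read partly against background. The raw median went from 859.7 to 143.7 in young and from 403.8 to 118.8 in old samples.

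The measured WAP-domain relatives of Wfdc1 were dim in quiescent cells. Of 19 listed genes, 16 were on the array and 5 were measured, and 0 of the 5 fell at either age, where 16.6% of all features were called lower in young and 13.8% in old mice. Of these 5, 0 were detected on all 6 quiescent arrays of either age. A fall could hardly have been called from such levels, so the count says little about the family. Wfdc17, a secreted protein made by activated macrophages in mice, rose 4.96-fold in young (limma adjusted p = 8.93e-05) and 4.41-fold in old mice (adjusted p = 0.000337). Slpi, a secreted inhibitor of leukocyte proteases, rose 8.98-fold in young (adjusted p = 0.000138) and 3.23-fold in old mice (adjusted p = 0.0303, a call lost under 3 other settings and without old quiescent 5 or 6 or old activated 2 or 6, with adjusted p up to 0.0911). Wfdc18 rose 2.25-fold in old mice (adjusted p = 0.00521). Young quiescent arrays detected Wfdc17 on 1 of 6 and Slpi on 3 of 6, and old quiescent arrays each of these on 4 of 6. Wfdc18 was detected on 1 of 6 old quiescent arrays, so these sizes are read partly against background. The lowest log2 rises under other settings were 0.88 for Wfdc17 and 1.70 for Slpi in young mice, and 0.37 for Wfdc18 in old mice. The 15 macrophage markers rose in the same samples (14 called higher in young and 13 in old mice), and the part of these cells in the Wfdc17 and Slpi values was not tested. The list's median change was 0.62 in young and 1.17 in old mice, against -0.01 and -0.00 for all features.

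Cldn10, the claudin, had the largest mean fall of the 5 genes and the widest spread in the main setting. Its brightest probe read 9.13, 9.60 and 10.49 on young quiescent and 8.99, 9.95 and 10.43 on old quiescent arrays. Activated arrays read 5.29, 5.97 and 7.44 in young and 4.31, 5.39 and 8.76 in old mice. The 2 states did not overlap, although old activated array 3, at 8.76, came close to the lowest old quiescent array. The change was -3.64 ± 0.51 in young (12.5-fold) and -4.10 ± 0.51 in old mice (17.2-fold), and -4.70 in old mice without that array. On that array both kept probes were bright, with raw intensities of 649.5 and 447.6 against group medians of 133.3 and 119.1. Of 6 old activated arrays, 4 detected the brightest probe.

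The array has 4 probes for Cldn10, annotated in pairs to different RefSeq transcripts, and in each pair 1 probe was bright and 1 was dim. The second bright probe changed by -3.66 ± 0.51 in young (12.6-fold) and -3.87 ± 0.51 in old mice (14.6-fold), close to the first. One of the dim probes was detected on 0 of 24 arrays and the other on 1, an old activated array. Both kept probes thus fell by like amounts, which is a description, since the gene was chosen for this fall. Which start site the cells used was not analysed here.

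**Figure D2:**
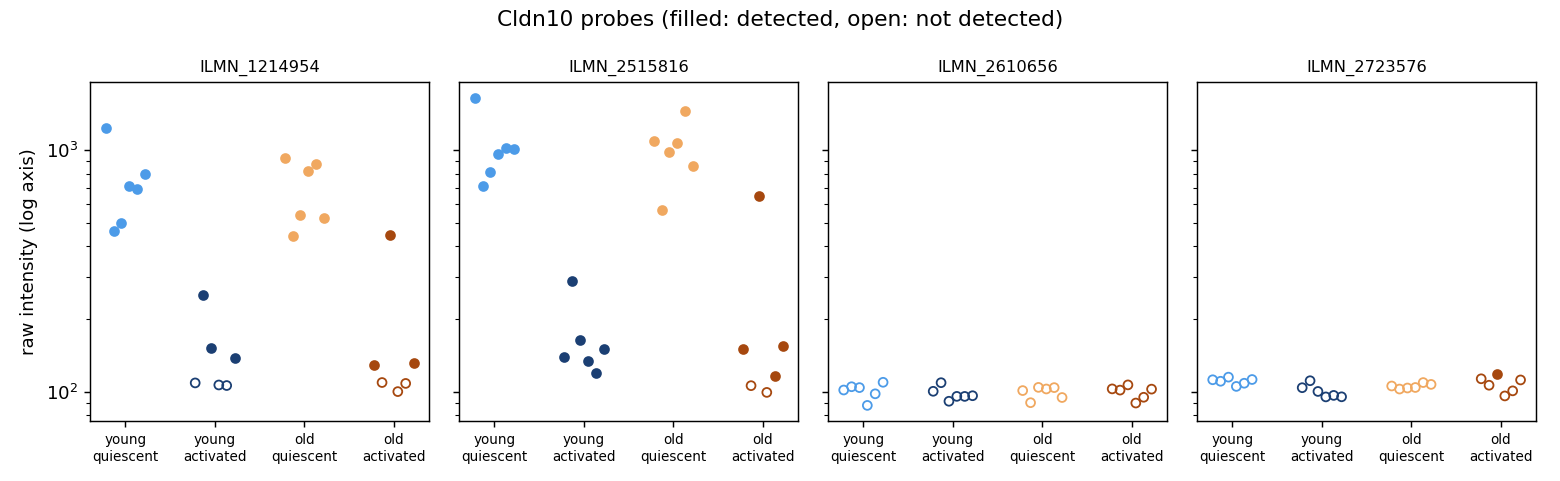
Raw intensity on a log axis (vertical) of the 4 Cldn10 probes, 1 panel each, on every array of the 4 groups (horizontal axis), filled where detected and open where not. The 2 bright probes separate quiescent from activated arrays, apart from old activated array 3 at 649.5 and 447.6, while the 2 dim probes stay between 87.7 and 118 throughout.

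Of 29 other listed claudin and tight junction genes, 23 were on the array and 6 were measured. Of the 6, 4 fell in young and 4 in old mice, with 0 rising, where 16.6% of all features were called lower in young and 13.8% in old mice. In young mice limma's fit gave Cldn15, another claudin, 3.17-fold lower (adjusted p = 0.000131), F11r, a junctional adhesion molecule, 3.15-fold (adjusted p = 0.0102), its relative Jam2 3.12-fold (adjusted p = 0.00129) and Tjp1, the junction scaffold, 1.94-fold (adjusted p = 0.00287). In old mice Cldn12 fell 3.06-fold (adjusted p = 0.00383), Jam2 2.74-fold (adjusted p = 0.00476), Tjp1 2.17-fold (adjusted p = 0.000967) and Cldn15 2.10-fold (adjusted p = 0.00936). The list's median change was -1.30 in young and -1.10 in old mice. F11r, Jam2 and Tjp1 are also expressed by endothelial cells, whose markers fell in the same samples (11 of 12 called lower in young and 4 in old mice), and the part of those cells was not tested. None of the claudin calls held when levels were taken relative to the FAP markers, and without the 3 arrays that stood apart Jam2 in old mice also lost its call (adjusted p = 0.102).

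P2ry1, the ADP receptor, read 9.36, 9.53 and 9.77 on young quiescent and 8.30, 9.79 and 10.37 on old quiescent arrays. Its activated levels were 5.16, 6.04 and 7.02 in young and 4.36, 6.33 and 7.14 in old mice. The SD over 6 arrays was 0.17 in quiescent and 0.67 in activated cells of young mice, and 0.73 and 1.01 in those of old mice. Both states stayed apart at each age, and the ages overlapped within a state. The change was -3.47 ± 0.39 in young (11.1-fold) and -3.69 ± 0.39 in old mice (12.9-fold). Raw medians went from 898.7 to 154.0 in young and from 959.4 to 168.0 in old samples, and 5 of 6 old activated arrays detected the probe.

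Of 30 listed purinergic receptors, nucleotide-hydrolysing enzymes and signalling partners, 25 were on the array and 12 were measured. Of the 12, 2 rose and 3 fell in young mice, and 3 rose and 2 fell in old mice. That is 5 of 12 called at each age, where 33.7% of all features were called in young and 28.3% in old mice. Entpd2, an ectoenzyme that converts extracellular ATP to ADP, fell 8.94-fold in young (limma adjusted p = 1.88e-09) and 5.80-fold in old mice (adjusted p = 1.6e-07). The UDP-sugar receptor P2ry14 fell 4.10-fold (adjusted p = 0.00594) and 5.56-fold (adjusted p = 0.00163), the old change of -2.47 on the log2 scale being -1.79 without old activated array 4. Gna11, a G protein subunit of the Gq family, fell 2.24-fold in young mice (adjusted p = 0.00361). The UDP receptor P2ry6 rose 5.14-fold (adjusted p = 2.01e-05) and 4.32-fold (adjusted p = 0.00013), and the ATP-releasing channel Panx1 rose 2.43-fold (adjusted p = 0.0111) and 2.39-fold (adjusted p = 0.0153). P2ry13, a second ADP receptor that couples to Gi, rose 2.22-fold in old mice (adjusted p = 0.0156), with its probe detected on 1 of 6 old quiescent arrays. P2ry6 and P2ry13 are also macrophage receptors, and the macrophage markers rose in the same arrays; their part was not tested. The median change of the list was 0.07 in young and -0.26 in old mice.

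Vit, the matrix protein, fell far in young mice and less far in old mice. Young quiescent arrays read 8.73, 9.24 and 9.62, and old quiescent arrays 8.29, 8.97 and 9.76. Young activated arrays read 4.65, 5.25 and 6.11, and old activated arrays 5.93, 6.71 and 7.56. Quiescent and activated arrays were apart at each age, the quiescent ages overlapped, and in activated cells the highest young array lay just above the lowest old one. The change was -3.91 ± 0.29 in young (15-fold) and -2.32 ± 0.29 in old mice (5.00-fold). The probe was detected on 4 of 6 young activated and on all 6 old activated arrays, with raw medians of 124.6 and 187.6 against 719.6 and 578.7 in quiescent cells.

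Relatives of vitrin with von Willebrand factor A or LCCL domains fell or did not pass the test. Of 15 listed genes, 14 were on the array and 6 were measured; 4 of the 6 fell in young and 3 in old mice, with 0 rising, where 16.6% and 13.8% of all features were called lower. Crispld2, a secreted LCCL protein, fell 9.80-fold in young (limma adjusted p = 8.93e-10) and 8.57-fold in old mice (adjusted p = 7.47e-09), a size like that of the 5 genes. Von Willebrand factor, Vwf, made by endothelial cells, fell 8.59-fold (adjusted p = 3.28e-06) and 3.14-fold (adjusted p = 0.00448), the second call being lost without the 3 arrays that stood apart (adjusted p = 0.0578). Col6a1, a chain of collagen VI, fell 2.12-fold (adjusted p = 0.000381) and 1.96-fold (adjusted p = 0.00156), and Col6a2 fell 2.20-fold in young mice (adjusted p = 0.0125). The list's median was -1.45 in young and -0.91 in old mice.

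**Figure D3:**
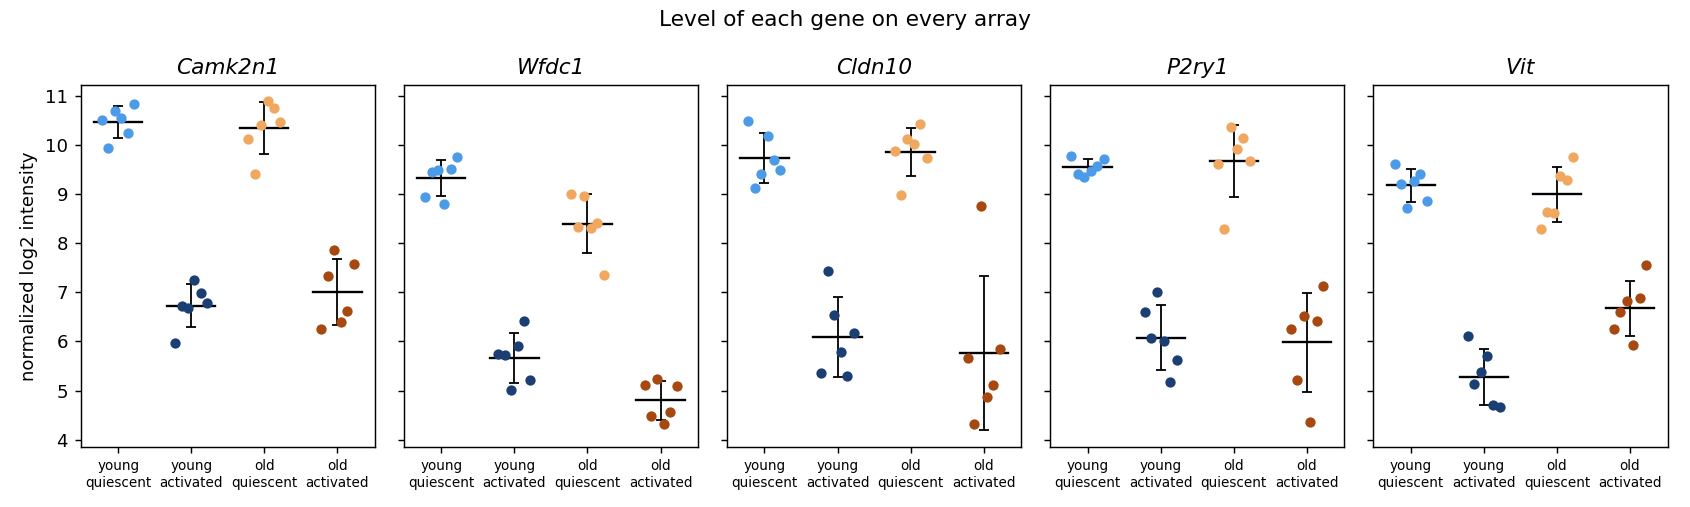
Normalized log2 intensity (vertical axis) of each of the 5 genes on every array (points) in the 4 groups (horizontal axis), with the mean (bar) and SD (whisker, n = 6). No activated array reaches a quiescent array of the same age for any gene, Wfdc1 is lower in old mice in both states, and Vit is higher in old than in young activated cells.

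Activated and quiescent arrays failed to overlap for all 5 genes at each age. Since the genes were chosen on this contrast, the count is a description. Of all 8148 features, 22.2% did not overlap in young and 8.81% in old mice, and at an adjusted p under 0.05 limma called 33.7% in young (16.6% lower) and 28.3% in old mice (13.8% lower). When the 758 named genes called lower at both ages were ranked by their mean log2 change, Cldn10 came 4th (-3.87), Wfdc1 6th (-3.63), P2ry1 8th (-3.58), Camk2n1 9th (-3.54) and Vit 27th (-3.11). Their mean falls were 14.7, 12.4, 11.97, 11.6 and 8.66-fold. The genes interleaved with the first 4 were Ltbp4, which binds latent TGF-beta (-4.15), the secreted protein Retnla (-3.69), the metalloproteinase inhibitor Timp3 (-3.59) and the progenitor marker Pi16 (-3.44). Around Vit stood Agap1, a regulator of the small GTPase Arf (-3.12), and the adipokine C1qtnf9 (-3.08). The choice of genes was therefore not a cut at a fixed rank, and genes outside it fell by the same amounts.

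**Figure D4:**
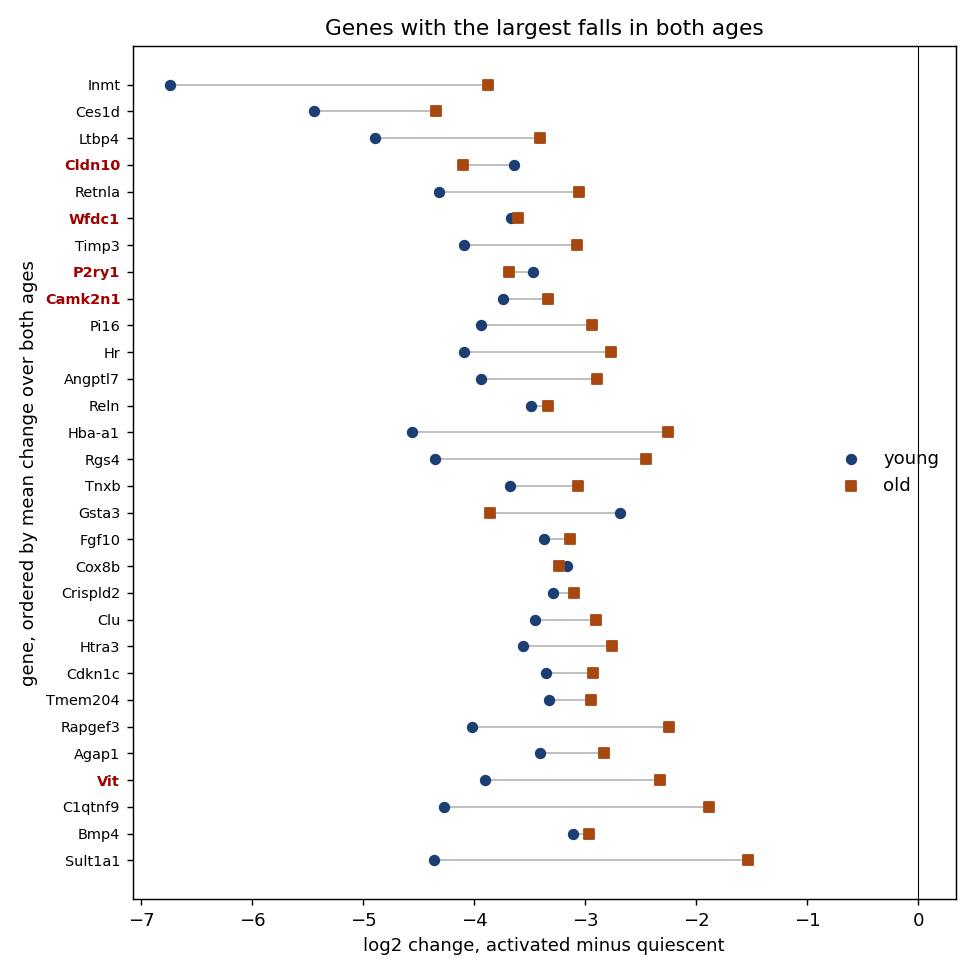
Log2 change from quiescent to activated (horizontal axis) in young (circles) and old (squares) mice for the named genes with the largest mean fall, ordered down the vertical axis, with the 5 genes in bold. The grey line joins the ages: it is short for Wfdc1 and P2ry1 and long for Vit (-3.91 and -2.32), Inmt and C1qtnf9.

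The size of the fall depended on how background was treated, and its direction did not. Without background correction the 5 genes were 5.21 to 7.68-fold lower in young and 3.12 to 6.46-fold lower in old mice. There the order of the genes changed too, with Camk2n1 at -2.94 in young and -2.65 in old mice and Cldn10 at -2.55 and -2.69. Wfdc1 was then less even between ages, at -2.38 and -1.90 on the log2 scale. In the authors' normalized values the falls were 5.02 to 7.42-fold and 3.05 to 6.21-fold. Measured relative to the mean of the 18 FAP markers, which fell themselves, they were 4.38 to 5.91-fold in young and 2.40 to 8.26-fold in old mice. So the levels were lower in activated cells at both ages under each of these settings. Because the genes were chosen for this fall in the same arrays, the kept direction is a description and no test of it.

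The leading genes of 2 other lists are given for comparison. Of 7 measured metabolic genes led by Inmt and Ces1d, 6 were called lower in young and 7 in old mice. Of 6 measured progenitor markers led by Pi16 and Dpp4, 3 were called lower at each age and 0 higher. Among all features 16.6% were called lower in young and 13.8% in old mice. The 3 markers not called included Wnt2, at 1.12 in young and 0.01 in old mice on the log2 scale. Inmt, a methyltransferase, changed 107-fold in young and 14.7-fold in old mice, and Ces1d, a carboxylesterase, 43.6-fold and 20.3-fold. The old change of Inmt was -3.88 on the log2 scale, and -4.56 without old activated array 3, which also enters its difference between ages. Pi16 changed 15.3-fold and 7.68-fold, and Dpp4, a peptidase on the same progenitor cells, 5.26-fold and 1.90-fold, the last of these turning to 0.13 on the log2 scale relative to the FAP markers (adjusted p = 0.73) and losing its call without old quiescent 4 or 5 or old activated 1, 5 or 6 (adjusted p up to 0.0949). Dpp4 is itself among the FAP markers, whose mean fell on activation, so that scaling sets it partly against itself. The differences between the old and young changes were 2.87 ± 0.81 for Inmt, 1.10 ± 0.66 for Ces1d, 1.00 ± 0.31 for Pi16 and 1.47 ± 0.46 for Dpp4 on the log2 scale, with limma adjusted p-values of 0.166, 0.681, 0.235 and 0.251. Of the 5 genes, Vit had a difference of that size, and those of the other 4 lay between -0.46 and 0.40.

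In quiescent cells, 0 of the 5 genes were called between ages, where 0.577% of all features were (0.16% lower and 0.417% higher), and 1 of the 5, Wfdc1, had an unadjusted limma p under 0.05. The ages overlapped for all 5 genes, where 1.14% of features did not overlap. Limma's old-minus-young differences were -0.12 ± 0.29 for Camk2n1 (adjusted p = 0.905), 0.13 ± 0.51 for Cldn10 (adjusted p = 0.952), 0.12 ± 0.39 for P2ry1 (adjusted p = 0.936) and -0.19 ± 0.29 for Vit (adjusted p = 0.84). These differences lay within the spread between arrays, and their standard errors of 0.29 to 0.51 leave room for larger changes in either direction. The median over the 5 genes was -0.12, against -0.01 for all features.

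Wfdc1 was 1.91-fold lower in old quiescent cells, a log2 difference of -0.93 ± 0.27. All 6 old arrays lay under the young mean. It did not pass the threshold over all features (limma adjusted p = 0.112), and an exact 2-sided permutation test over the 924 assignments of the arrays gave p = 0.013. This is 1 of 10 such tests made on the 5 genes in both states, and its p is unadjusted. Without background correction the difference passed (-0.77, adjusted p = 0.0331), as it did in the authors' values (-0.76, adjusted p = 0.0319). Across the alternative settings it ran from -0.93 to -0.61, with limma adjusted p up to 0.308. Macrophage markers averaged 8.27 in old and 6.91 in young quiescent cells, and lymphocyte markers 6.69 and 4.77. Endothelial markers averaged 8.86 and 9.48 there, and FAP markers 10.4 and 10.7. The part of these cells in the Wfdc1 difference was not tested.

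In activated cells, 1 of the 5 genes, Vit, was called between ages, where 0.27% of all features were called, 0.221% higher and 0.0491% lower. The ages overlapped for all 5 genes here too, where 1.04% of features did not overlap. Vit was 2.64-fold higher in old activated cells, a log2 difference of 1.40 ± 0.29 (limma adjusted p = 0.0351), and all 6 old arrays lay above the young mean. An exact 2-sided permutation test gave an unadjusted p of 0.00433, where the smallest that 6 against 6 arrays can give is 0.00216. The call was close to the threshold: it was lost without background correction (0.59, adjusted p = 0.142), in the authors' values (0.57, adjusted p = 0.145) and when young activated array 2, 3, 5 or 6 or old activated array 2, 3, 5 or 6 was left out (adjusted p up to 0.108). With array weights it stood at 1.58 (adjusted p = 0.00255), and without the 3 arrays that stood apart at 1.55 (adjusted p = 0.035). The 12 endothelial markers were also higher in old activated cells, with a mean of 7.96 against 6.96 in young ones and 2 of 12 (Robo4 and Gpihbp1) called. Macrophage markers averaged 10.5 against 9.72, and 0 of 15 were called. The 3 red blood cell genes averaged 7.17 against 5.91, with 1 (Hba-a1) called, and the 6 satellite cell and muscle genes 6.72 against 5.94, with 1 (Tnnt3) called. The part of these cells in the Vit difference was not tested, and relative to the FAP markers it was 1.44 (adjusted p = 0.0534).

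Wfdc1 was lower in old activated cells too, by -0.87 ± 0.27, or 1.82-fold, with all 6 old arrays under the young mean. That difference missed the threshold in limma's fit (adjusted p = 0.166), with an unadjusted exact permutation p of 0.0152. The probe was detected on 3 of 6 old activated arrays, and the difference was -0.28 without background correction (adjusted p = 0.567), -0.27 in the authors' values (adjusted p = 0.567) and -0.46 with an offset of 50 (adjusted p = 0.364). Camk2n1 differed by 0.28 ± 0.29 (adjusted p = 0.789), Cldn10 by -0.33 ± 0.51 (adjusted p = 0.868) and P2ry1 by -0.10 ± 0.39 (adjusted p = 0.955). The median over the 5 genes was -0.10, against -0.02 for all features.

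After Wfdc1 had been seen to be lower in both states, the age difference averaged over quiescent and activated cells was added to the fit. It was -0.90 ± 0.19 for Wfdc1, or 1.86-fold lower in old mice (limma adjusted p = 0.0172), and 12 of 12 old arrays lay under the young mean of their state. Over all features this contrast called 1.3%, with 0.466% lower. Because it was chosen from these values, it describes Wfdc1 and is no independent test. The call held with each array left out in turn (-0.96 to -0.79, adjusted p from 0.0139 to 0.038) and was lost relative to the FAP markers (-0.72, adjusted p = 0.127). The other 4 genes ranged from -0.10 to 0.61 and were not called. In the family lists, Wfdc17 (2.19-fold, adjusted p = 0.048) and P2ry6 (2.21-fold, adjusted p = 0.0262) were called higher in old mice by this contrast. The Wfdc17 call held with only 5 of 24 arrays left out in turn, and that of P2ry6 with 21 of 24 (lost without young quiescent 5, young activated 4 or old quiescent 6, adjusted p up to 0.0542).

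**Figure D5:**
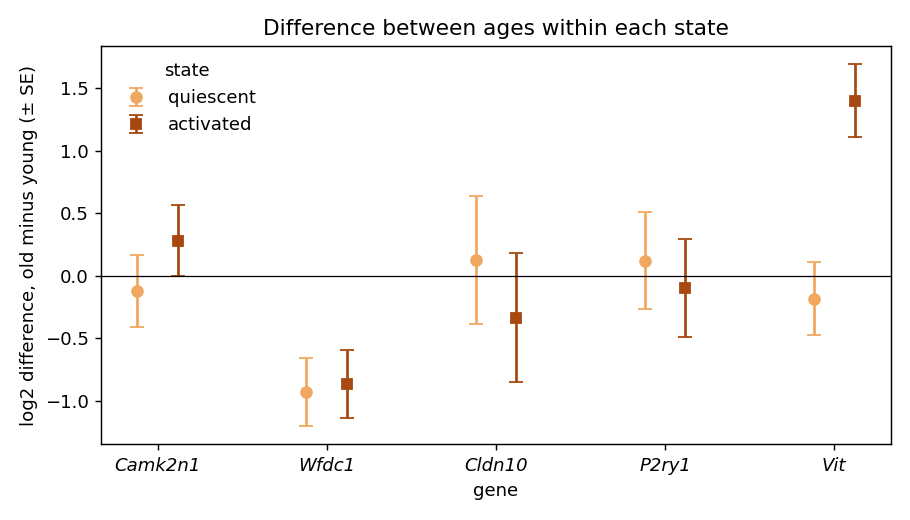
Old-minus-young difference in log2 intensity (vertical axis) for each gene (horizontal axis) in quiescent (circles) and activated (squares) cells, with its standard error from limma (n = 6 arrays per group). Wfdc1 lies under 0 in both states (-0.93 and -0.87), Vit lies above 0 in activated cells (1.40), and the other differences lie within about 1 standard error of 0.

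The difference between the activation changes of old and young mice asks whether age altered the fall itself. It is built from the same changes on which the genes were chosen, so its p-values draw on selected values. For Vit it was 1.58 ± 0.41, a 3.00-fold smaller fall in old mice (limma adjusted p = 0.139), where 0.184% of features were called (0.16% higher and 0.0245% lower). With array weights it passed (1.87, adjusted p = 0.0298). Its size depended on the setting, down to 0.72, with adjusted p up to 0.353. Without background correction Vit changed by -2.38 in young and -1.64 in old mice. Its probe was detected on 4 of 6 young activated arrays. The differences for the other genes were 0.40 ± 0.41 for Camk2n1 (adjusted p = 0.856), 0.06 ± 0.38 for Wfdc1 (adjusted p = 0.988), -0.46 ± 0.73 for Cldn10 (adjusted p = 0.92) and -0.22 ± 0.55 for P2ry1 (adjusted p = 0.962). Thus 0 of the 5 genes passed this test in limma's fit, and 1, Vit, had an unadjusted p under 0.05. In none of the family lists was a gene called for age within either state or for this difference.

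A few arrays of old mice carried much of the spread. Old quiescent array 2 had the lowest Camk2n1 (9.41), Cldn10 (8.99) and P2ry1 (8.30) of its group, but Wfdc1 (8.34) and Vit (8.64) were not. On it the macrophage marker mean (10.5), the endothelial mean (9.67) and the mean of 3 red blood cell genes (10.8) were the highest of the group, and the FAP marker mean (9.95) was the lowest. Old activated array 3 detected the most probes, 9943, and had the highest Cldn10, Camk2n1 (7.87) and Wfdc1 (5.24) of its group. Its mean over 7 metabolic genes led by Inmt and Ces1d was 9.18, against a group median of 7.24. Old activated array 4 detected the fewest probes, 6587, and had the lowest Wfdc1 (4.32), P2ry1 (4.36) and Vit (5.93). Without these 3 arrays the old changes on activation were -3.59 for Camk2n1, -3.61 for Wfdc1, -4.81 for Cldn10, -3.69 for P2ry1 and -2.24 for Vit.

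Within groups, correlations between the 5 genes ran from weakly negative to moderate. Pearson's r over 24 arrays, after each group's mean was subtracted, was 0.58 between P2ry1 and Vit, 0.49 between Cldn10 and P2ry1, 0.47 between Camk2n1 and Cldn10 and 0.34 between Camk2n1 and P2ry1. Wfdc1 stood apart, with r from 0.11 to 0.14 for the first 3 and -0.27 for Vit. These values are descriptions, since all points of an array share its RNA, its cell mixture and its normalization.

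For the pattern of each gene, the 3 named genes with the highest r within groups are given, again over 24 arrays. Camk2n1 varied most like the adipogenesis-associated gene Medag (0.86), the growth suppressor Ndn (0.83) and the hexosamine pathway enzyme Gfpt2 (0.82). These stood at 0.81, 0.77 and 0.73 without the 2 arrays on which Camk2n1 lay farthest from its group mean. Nearest to Cldn10 were the scavenger receptor Scara5 (0.80), Inmt (0.78) and the glucocorticoid-activating enzyme Hsd11b1 (0.78). These dropped to 0.61, 0.61 and 0.54 without old activated arrays 2 and 3, so they rested in part on those arrays. P2ry1 was nearest to Emp1 (0.79), Oxr1 (0.76) and Jade1 (0.75), with 0.61, 0.53 and 0.52 when old activated array 4 and old quiescent array 2 were left out. Vit was nearest to Dipk1c (0.75), Kansl1l (0.70) and the topoisomerase Top2b (0.68), and Wfdc1 to the myosin light chain Myl12a (0.69), Lyrm2 (0.67) and Mnat1 (0.66). With the 2 farthest arrays left out, these were 0.64, 0.64 and 0.55 for Vit and 0.62, 0.63 and 0.57 for Wfdc1. No gene was named by this rule for more than 1 of the 5.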

How the data were processed

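The authors deposited raw bead intensity values and detection p-values for 25697 probes, per the file headers. Their normalized log2 values were deposited too; these differed by at most 0.0931 from quantile-normalized log2 intensities with no background step, and had a median of 6.71 on every array, so scale, centring and direction are known. Partek is named in the submitters' processing notes, with no version. Arrays hold no counts, so precision rests on their number.

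Intensities were corrected by limma's nec, using the detection p-values, then given an offset of 16, quantile-normalized and put on the log2 scale (R 4.3.3, limma 3.58.1). A probe was kept if its detection p-value was under 0.01 on 6 or more of the 24 arrays (10048 probes). Each gene took its brightest kept probe (1529 genes had several), which left 8148 features: 7576 named genes and 572 probes without a name. Of the 25697 probes, 23978 carried 1 symbol, 1719 none and 0 several, and 23962 matched RefSeq's gene table. limma fitted the 4 group means in 1 model. P-values were Benjamini-Hochberg adjusted across the 8148 features, and calls were made under 0.05. Errors of changes are moderated standard errors. A gene with no probe detected on any array of a group has a bound only, computed from the other group's mean and, on each array of the dim group, the larger of the probe's signal and the lowest detected signal. The steps were tested on simulated data.

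The 5 genes, the lists and the tests were chosen with earlier results of these data known. Other genes named are up to 4 called per direction from a family list, any called for age, the 3 nearest by correlation, the ranking's neighbours, and Pdgfra, Pi16, Dpp4, Inmt and Ces1d. Alternatives changed the background step, filter, probe choice, weights, block, scaling and arrays. Column names carry a letter that is the same for all arrays of a group, and its effect and the group's cannot be told apart. Chip and scan batches were not given in the sources used here. Promoters of Camk2n1, Wfdc1 and Vit were not analysed here.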

Additional observations from a re-analysis of the deposited data

Results flagged for a closer look

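Within the 20 sets of 6 arrays formed by the 5 genes and 4 groups, 2 had an array far from the others by Dixon's test, where chance gives about 1 in 20. Cldn10 was 8.76 on old activated array 3, above the other 5 arrays by 0.655 of the group's range. Its second kept probe was also brightest on that array, the change on activation in old mice was -4.70 without it, and the array detected 9943 probes, the most of all. P2ry1 was 8.30 on old quiescent array 2, below the other 5 by 0.641 of the range. That array had the highest macrophage, endothelial and red blood cell marker means of its group. The part of these other cells in the P2ry1 value was not tested.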

How the results depend on the processing

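The activation changes of the 5 genes kept their direction under every alternative run, with sizes from -4.81 to -1.26 on the log2 scale. Alternatives other than leaving out 1 array gave 747 values on the same side of the threshold or within the spread, 51 moved, 47 that lost a call, 5 that gained one (2 of them by the unadjusted exact test) and 21 that changed sign. Leaving out 1 array cost 57 calls: in old mice on activation those of Calm2 (6 arrays of 12), Camk2d (6: old quiescent 2, 3 and 4, old activated 2, 3 and 5), Camk2b (6: old quiescent 3 and 5, old activated 1, 2, 5 and 6), Slpi (4) and Dpp4 (5), and those of Vit (8 of 12), Wfdc17 (19 of 24) and P2ry6 (3 of 24) between ages. For Calm2 the arrays were old quiescent 3, 5 and 6 and old activated 1, 3 and 6. The causes were not tested, apart from those a setting's construction gives.

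Activation counts were 2748 (young) and 2304 (old), and 1606 and 1373 among the 3823 features detected on all 24 arrays (of the 5 genes only Camk2n1). Relative to the FAP markers, which shifted the median of all features to 1.33 and 1.06 (age in quiescent cells 0.31, difference of changes -0.29), they were 6578 (6365 higher, 213 lower) and 5767 (5597 higher, 170 lower), against 1399 higher and 1349 lower and 1178 higher and 1126 lower in the main setting. In quiescent cells the age count of 47 (34 higher, 13 lower) became 31 without a filter, 81 with array weights, 127 relative to the FAP markers (123 higher, 4 lower), 2 when only the arrays compared were fitted and 74 (39 higher, 35 lower) without the 3 arrays that stood apart, chosen after seeing the data. It was split 31 to 27 without background correction and in the authors' values. In activated cells the count of 22 (18 higher, 4 lower) became 39 among features detected on all arrays, 137 with weights (86 higher, 51 lower) and 9 relative to the FAP markers (9 higher, 0 lower). It was split 19 to 11 without background correction and 14 to 6 at an offset of 50. For the difference between activation changes, 15 (13 higher, 2 lower) became 9 without a filter (9 higher, 0 lower), 30 with weights (22 to 8), 9 relative to the FAP markers (1 to 8) and 26 without the 3 arrays. The count for both states averaged, 106, became 68 without a filter and 276 with weights.

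With 1 array left out, counts ran from 28 to 107 (age, quiescent; highest without old quiescent 4, lowest without young quiescent 2, and 31 without old quiescent 6), 10 to 106 (age, activated; highest without young activated 1, lowest without young activated 3, with 13 and 11 without young activated 4 and 5) and 8 to 42 (difference of changes; 42 without old quiescent 2, 30 without old quiescent 4, 24 without young activated 1 and 8 without young activated 5).

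Relative to the FAP markers these values changed sign: for activation in young mice Camk2b (0.30), Tjp1 (0.39), Gna11 (0.18), Col6a2 (0.21), Col6a1 (0.26) and Pdgfra (0.31); in old mice Camk2b (0.30), Col6a1 (0.087) and Dpp4 (0.13); for age in quiescent cells Camk2n1 (0.20) and Vit (0.14); for the difference of changes Wfdc1 (-0.22); and for both states averaged Cldn10 (0.075). P2ry14 in young mice (adjusted p = 0.269) and Vwf in old mice (adjusted p = 0.291) lost their calls. Cldn10 averaged over states was 0.044 without background correction and in the authors' values, and 0.0038 at an offset of 50. With array weights P2ry1 in activated cells was 0.17 between ages, and the differences of changes were -0.057 for Wfdc1 and 0.045 for P2ry1. Without the 3 arrays, Camk2n1 between quiescent ages was 0.066 and P2ry1 between activated ages 0.18. Leaving out 1 array, small differences crossed 0: between quiescent ages Camk2n1 (-0.23 to 0.066) and P2ry1 (-0.020 to 0.39), between activated ages P2ry1 (-0.33 to 0.23), for the difference of changes Wfdc1 (-0.14 to 0.21) and P2ry1 (-0.49 to 0.11), and averaged over states (counts from 57 to 231) Camk2n1 (-0.0061 to 0.17), Cldn10 (-0.40 to 0.041) and P2ry1 (-0.10 to 0.17). None of these passed the threshold in the main setting or with 1 array left out.

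Vit between activated ages kept its direction under every alternative (0.57 to 1.58) and its call with the mean of a gene's probes, with array weights and without the 3 arrays. It lost the call at an offset of 50 (0.90, adjusted p = 0.0695), without a filter (adjusted p = 0.0817) and when only the activated arrays were fitted (adjusted p = 0.0895). Same-numbered arrays' deviations correlated at -0.09 to 0.36 (36 pairs, median 0.05). Other pairs were not compared, so pairing was not tested. With replicate number as a block, these counts were 2823, 2421, 52, 30 and 15, and the only named gene's call to change was Vit's (adjusted p = 0.0634).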

Other observations

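Some markers of other cell types were called between ages. Aif1, 1 of 15 macrophage markers, was called higher in old quiescent cells. Hba-a1, 1 of 3 red blood cell genes, and Tnnt3, 1 of 6 muscle genes, were called higher in old activated cells. Of 5 measured lymphocyte markers, 3 were called higher in old than in young quiescent cells (Cd3d, Cd3g and Cd79b, parts of the T and B cell receptors), and their mean log2 level was 6.69 against 4.77. On old quiescent array 6 this mean was 8.46, the highest of the group, and Wfdc1 was 7.36, the lowest of the group. Without each array in turn, the Wfdc1 difference between quiescent ages ran from -1.05 to -0.72 and stayed uncalled (adjusted p from 0.0798 to 0.248).

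Thy1, a surface protein of fibroblasts, was the only 1 of 18 FAP markers called between ages in quiescent cells, 2.46-fold lower in old mice (limma adjusted p = 0.0347).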
